A study of Mus musculus with 9 samples.

Results

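The nuclear genes of oxidative phosphorylation were followed in mouse natural killer (NK) cells, the innate lymphocytes that kill infected and transformed cells. Members were the genes whose symbol begins with the names of subunits of respiratory complexes I to IV or of the ATP synthase (complex V), other than Ndufaf assembly factors and pseudogenes, with a level of at least 5 CPM (counts scaled to a common library total) in at least 3 of the 9 libraries. That gave 77 members of 27179 genes in the count files. Of 91 candidate genes, 14 were under that level and are named where their complex is described. Complex I has 36 members, complex II has 4, complex III has 7, complex IV has 13 and complex V has 14, and the symbol rule also took in 3 assembly factors of complex II (Sdhaf1, Sdhaf2 and Sdhaf4). Complex IV here includes Ndufa4, a subunit of cytochrome c oxidase despite its name.

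All libraries came from C57BL/6 spleen. Cultures of cells lacking Id2 (Id2-null) and of wild-type cells (WT), 3 libraries each, were kept in interleukin-15 for 7 days. Immature, M1 and M2 NK cells, 1 library each and all wild type, were sorted from spleen with no culture. ID2 is a helix-loop-helix protein that blocks E proteins, and the series asked how its loss changes NK transcription. The sources used here do not give how the Id2 allele was removed, the age and sex of the mice, the sorting gates or whether libraries came from separate mice. The p-values therefore describe the spread between these libraries alone. Libraries held 4128414 to 4831831 counts, and the members took 0.784 to 0.999% of them. Id2 itself had 56, 113 and 44 counts in the Id2-null libraries and 1925 to 1958 in WT. The 12 NK markers were detected in all groups, with summed levels of 8200 CPM or more in each library. Markers of other blood cells were found in the sorted libraries: Lyz2, a lysozyme of myeloid cells, was listed at 0 in all 6 cultures and stood at 54.0, 55.8 and 205 CPM by library total in Immature, M1 and M2.

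Oxidative phosphorylation takes place in the inner mitochondrial membrane. Complexes I and II pass electrons to coenzyme Q, complex III passes them to cytochrome c, and complex IV passes them to oxygen. Complexes I, III and IV pump protons, and complex V uses the gradient to make ATP. Most subunits are nuclear genes, and a few core subunits of complexes I, III, IV and V are encoded by mitochondrial DNA. Interleukin-15 supports NK cell survival and growth and is known to raise their metabolic activity.

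Promoters of many such genes carry sites of NRF1, a transcription factor of respiratory genes. RefSeq windows (GRCm38.p6) from 250 bases before to 50 bases after the start matched 63 of the 77 members. A gene with several annotated starts has several windows, and a motif in any of them was counted. The NRF1 palindrome GCGCATGCGC, GCGCA followed by its reverse complement, was found in 4 of the 63 (6.35%), against 2.47% of the 9434 tested genes with a window. The letters AAGATGGC, a core of the YY1 site, were found on either strand in 10 (15.9%), against 5.5% of tested genes. CCGGAAG, a core of the ETS site, was in 16 (25.4%), against 21.1%, and CAGCTG, an E box form bound by E proteins, was in 5 (7.94%), against 16.9%. All 4 motifs were searched on both strands and counted separately, with overlaps between them kept. A match is a description of letters and not a bound site. Below are 3 windows, upstream of the start, that show the NRF1 palindrome in capitals, read 5′ to 3′ on the gene's strand.
Atp5k, chr5:108434415-108434474, minus strand: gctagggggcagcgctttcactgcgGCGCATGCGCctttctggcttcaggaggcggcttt
Cox6a1, chr5:115349086-115349145, minus strand: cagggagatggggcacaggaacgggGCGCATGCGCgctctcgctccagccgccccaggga
Ndufa11, chr17:56717677-56717736, plus strand: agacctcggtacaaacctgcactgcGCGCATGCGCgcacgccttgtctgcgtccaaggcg
The first base of the motif lies 50, 162 and 60 bases before the start of the 3 genes in that order. No window is given for Cox6a2. Between cultured WT and sorted cells, in the test described later, 1 of the 4 members with the NRF1 palindrome was lower and 0 were higher, against 19 and 7 of the 59 without it. The lower one was Atp5k, a membrane subunit of complex V, at 35.6, 39.3 and 34.5 CPM in WT and 57.8, 51.4 and 65.4 CPM in Immature, M1 and M2 (log2 -0.67). Ndufa11 was not called (log2 -0.39).

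Levels between genes were compared per length, as RPKM (CPM divided by gene length in kilobases), averaged over the 9 libraries. The highest members were Atp5b (554 RPKM) and Atp5a1 (443 RPKM), the catalytic beta and alpha subunits of the ATP synthase, and Cox4i1 (487 RPKM), the ubiquitous subunit 4 of cytochrome c oxidase. Cox8a followed at 380 RPKM. In complex I the highest were the accessory subunits Ndufa3 (224 RPKM) and Ndufb7 (188 RPKM). In complex II they were Sdhb (137 RPKM), the iron-sulphur subunit, and Sdha (102 RPKM), the flavoprotein. In complex III they were the small subunits Uqcrq (218 RPKM) and Uqcr10 (175 RPKM). The lowest member was Sdhd, a membrane anchor of complex II, at 5.65 RPKM. Subunits of one complex occur in fixed proportion in the protein, whereas these transcript levels ranged widely within each complex. Another gene at least 90% alike over 100 coding bases was found for 31 of the 74 members matched in the GENCODE annotation, and reads of those members may have been split or lost. Sdhd, Cox7a2 and Cox6a2 had no such gene. Like genes were not sought for the 3 members without a match in that annotation, Atp5pb, Ndufb4b and Ndufb4c.

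Isoform pairs of complex IV differed in level. The tissue-restricted isoforms Cox4i2, Cox7b2, Cox8c and, except for 1 count in WT replicate 1, Cox8b were listed at 0 in all 9 libraries. Cox7a1, the muscle isoform of subunit 7a, had 2 to 27 counts per library and was under the level for membership, as was Cox6b2 with 0 to 5. The hypoxia-linked Ndufa4l2 had 1 count in all. Outside complex IV, Uqcr11 of complex III was listed at 0. The other 6 under the level were Atp5g2, Atp5l and Atp5md of complex V, Ndufab1 and Ndufb4 of complex I and the assembly factor Sdhaf3. These 6 had at most 51 counts in any library. Counts of 0 or few do not show that a gene is silent, since reads may have been split or lost. The part of such loss was not tested.

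The first comparison asked which members differ between Id2-null and WT cells after culture in interleukin-15. Of the 77 members, 1 rose in Id2-null cells and none fell (edgeR quasi-likelihood, p adjusted by Benjamini-Hochberg over 11022 genes, threshold 0.05). Over all genes tested, 3.36% were called, 1.84% higher and 1.52% lower. With an unadjusted edgeR p under 0.05 there were 5 of the 77 members, all higher in Id2-null cells, beside 1625 of the 11022 genes. That is a smaller share of the members than of all genes. Limma voom and DESeq2 also called 1 member higher and none lower. Marker levels moved with genotype as well. The 12 NK markers summed to 8200 to 8497 CPM in Id2-null libraries and 10960 to 13820 CPM in WT. The widest gap among them was in Gzma, at 513, 751 and 170 CPM against 5082, 3262 and 3193 CPM. Prf1 came next, at 694.5, 538 and 320 CPM against 1802, 2044 and 638 CPM, and its ranges overlapped. Tbx21 was lower in every Id2-null library than in any WT library, while Eomes and Il2rb were higher in every one. The 4 stroma markers, nearly all Pecam1, summed to 41.7 to 61.0 CPM against 139.5 to 178 CPM. Of the 6 T cell markers, Cd3g, a T cell receptor component, was at 110, 138 and 87.5 CPM in Id2-null libraries and 18.5, 73.0 and 21.1 CPM in WT. Cd3e, another component, leaned the other way, at 9.61, 25.1 and 11.15 CPM against 17.4, 83.7 and 19.45 CPM. Cd4, Cd8a, Cd5 and Cd6 were at 1.56 CPM or less in all 6 cultures. The sums of the 6 markers overlapped, at 99.5 to 164.5 CPM in Id2-null libraries and 36.9 to 158.4 CPM in WT. The part of such differences in the members' values was not tested.

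The gene that rose was Cox6a2 (chr7:128205435-128206366), the heart and skeletal muscle isoform of subunit 6a, which regulates cytochrome c oxidase. It stood at 25.1, 18.8 and 10.4 CPM in the Id2-null libraries, scaled by the trimmed mean of M values (TMM), and at 1.67, 1.2 and 0.77 CPM in WT. The lowest Id2-null library lay far above the highest WT library. The counts behind these levels were 114, 89 and 51 against 8, 6 and 4. Its mean was 18.1 ± 7.37 CPM in Id2-null cells and 1.23 ± 0.449 CPM in WT (SD, n = 3 each). The log2 fold change was 3.87 (SE 0.44, edgeR adjusted p = 0.00417), a 14.6-fold difference. It was called in each alternative fit of this comparison. Outside Id2-null cells it reached 5 CPM in 2 libraries, Immature and M1, so it met the rule for membership only with the group where it is high, and its count is no support for a change in the members.

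Cox6a1, the liver-type isoform found in most tissues, carried the bulk of subunit 6a transcripts in both genotypes. It stood at 184, 247 and 183 CPM in Id2-null cells and 186, 205 and 162 CPM in WT, and these ranges overlapped. The log2 fold change was 0.16 (SE 0.16, edgeR adjusted p = 0.732), and its 95% interval ran from 0.899-fold to 1.38-fold. Per length, Cox6a2 reached 27.5 RPKM in Id2-null cells, against 384 RPKM for Cox6a1. In WT the pair stood at 1.86 and 346 RPKM. Cox6a2 was therefore the minor isoform in both genotypes by transcript level.

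**Figure D1:**
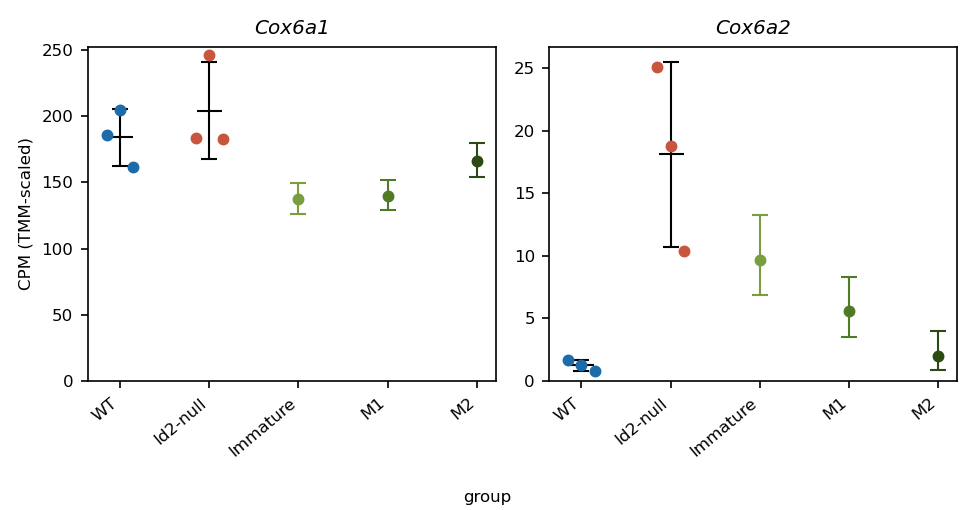
TMM-scaled CPM (vertical axis) of Cox6a1 and Cox6a2 in each group. Points are libraries, black bars are the mean and SD of 3 libraries, and coloured bars at Immature, M1 and M2 are exact Poisson 95% intervals of 1 library; Cox6a2 is at 10.4 CPM or more in Id2-null cells and at 1.67 CPM or less in WT.

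The large subunits of each complex showed no called difference between genotypes. Atp5a1 was at 1109 ± 137 CPM in Id2-null cells and 924 ± 56.9 CPM in WT (SD, n = 3 each), with a log2 fold change of 0.27 (edgeR adjusted p = 0.421). Levels of Atp5b were 1178 ± 133 and 1015 ± 59.4 CPM, a log2 fold change of 0.22 (edgeR adjusted p = 0.523). Cox4i1 had a log2 fold change of 0.10 with an approximate 95% interval of 0.891-fold to 1.29-fold. For Uqcrc1, a core subunit of complex III, the value was 0.19, and for Sdha it was 0.04, with intervals of 0.943-fold to 1.38-fold and 0.866-fold to 1.23-fold. Ndufs1, the largest subunit of complex I, stood at 79.0 ± 12.4 and 79.4 ± 6.88 CPM. Atp5g1, which encodes subunit c of the proton-driven ring, had a log2 fold change of 0.15 and Ndufa4 of 0.27.

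As a group the members lay slightly above 0 in this comparison. Their median log2 fold change was 0.17, against 0.01 over all genes tested, and 64 of 77 were above 0. Without Id2-null replicate 3 the median was 0.08 and 53 were above 0. By complex the medians were 0.16 for I, -0.02 for II, 0.23 for III, 0.16 for IV and 0.22 for V. In 11 members all Id2-null libraries lay above all WT libraries, and in 0 all lay below. Over the genes tested those shares were 9.92% and 10.5%. The 11 included Atp5a1, Atp5c1, Atp5h, Uqcrc2, Ndufa9 and Ndufv2, and only Cox6a2 among them passed the test.

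**Figure D2:**
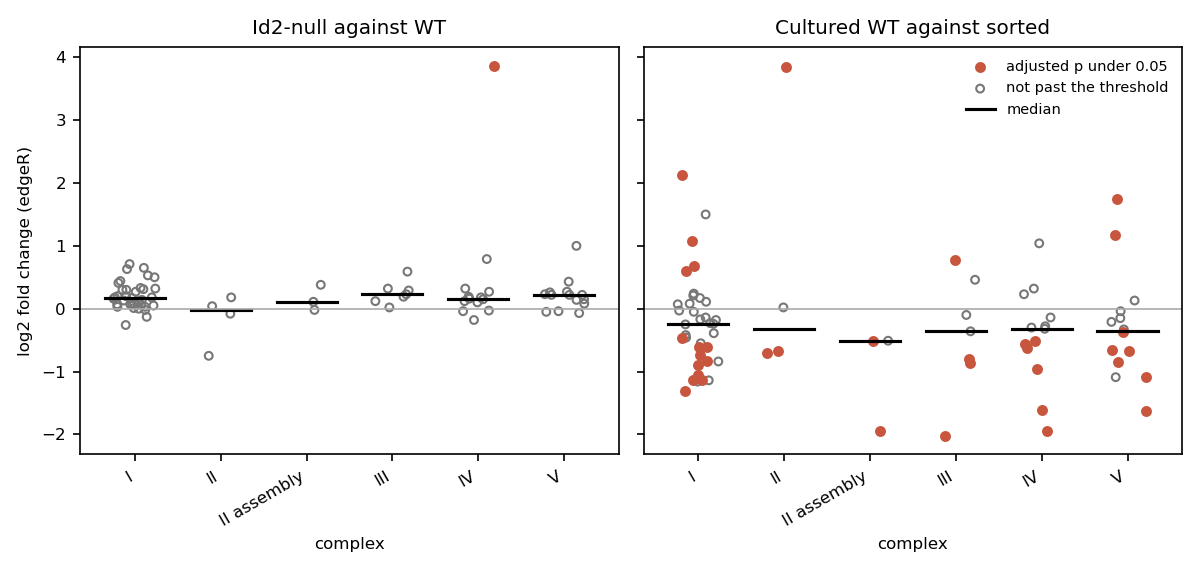
Log2 fold change of each member by complex (horizontal axis), Id2-null against WT on the left and cultured WT against the mean of the sorted populations on the right. Filled points passed an adjusted p under 0.05 and bars are medians; on the left 1 point is filled, Cox6a2 at 3.87, and on the right 8 filled points lie above 0 and 29 below.

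Id2-null replicate 3 stood apart from replicates 1 and 2 for some of the smallest subunits. In it 8 members were at least 2-fold above the mean of the other Id2-null libraries and 4 were at least 2-fold below, 15.6% of members against 8.89% of genes at 5 CPM. Ndufc1, an accessory subunit of complex I, was at 1.32, 2.54 and 17.3 CPM in replicates 1, 2 and 3. Atp5j2, a membrane subunit of complex V, was at 27.7, 30.2 and 133 CPM. Uqcrh, the hinge protein of complex III, was at 31.0, 20.7 and 108 CPM, and Cox5b, which binds zinc in complex IV, at 13.2, 15.6 and 55.7 CPM. In WT, Uqcrh ranged from 28.5 to 43.7 CPM and Cox5b from 11.5 to 23.3 CPM. Of the 8 high members, 5 have another gene alike. Pseudogenes left out of the members also differed, Uqcrh-ps1 at 3, 8 and 137 counts and Atp5c1-ps at 1, 0 and 113. Ndufs6b had 58, 73 and 195 and Ndufa11b 12, 19 and 87, while Ndufs5-ps went the other way (128, 143 and 96). The 4 low members were Ndufb4b, Ndufv3, Cox6a2 and Sdhd. Ndufb4b had 85, 71 and 9 counts, and Ndufb4, under the level for membership, had 9, 6 and 51. The part of reads shared between like genes in these values was not tested. Without replicate 3 of both genotypes, Cox7a2, the common isoform of subunit 7a, was called lower in Id2-null cells (22 and 25 counts against 48 and 65). Cox6a2 was called higher there, and 1014 of 11070 genes were called in that fit. The replicates left out went the other way for Cox7a2, with 88 counts in Id2-null and 45 in WT. With all 6 libraries its log2 fold change was -0.18 (edgeR adjusted p = 0.919).

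The second comparison set the WT cultures against the sorted wild-type populations. It used a model of 5 groups on all 9 libraries, contrasting WT with the mean of Immature, M1 and M2. Its spread came from the replicated cultures, so each sorted library was assumed to vary like them. Culture, time outside the mouse, sorting and the mix of NK populations cannot be told apart in this contrast. In bulk samples, fewer cells of a type and less RNA per cell cannot be told apart either. The WT libraries are shared with the first comparison.

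Of the 77 members, 29 were lower and 8 were higher in cultured WT than in sorted cells (edgeR, adjusted p under 0.05 over 12326 genes). Over all genes tested, 55.4% were called, 27.9% lower and 27.4% higher. The share of members called lower was thus above that of all genes, and the share called higher was below it. With library totals alone as scaling the split was 22 lower and 11 higher. The shares over all genes above are from the TMM scaling and are not the background for that split. The median log2 fold change of the members was -0.36, against 0.00 over all genes tested. Under library totals it was -0.19, against 0.18 over all genes. In 40 members all WT libraries lay below all 3 sorted libraries, and in 11 all lay above, against 33.8% and 31% of the genes tested.

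**Figure D3:**
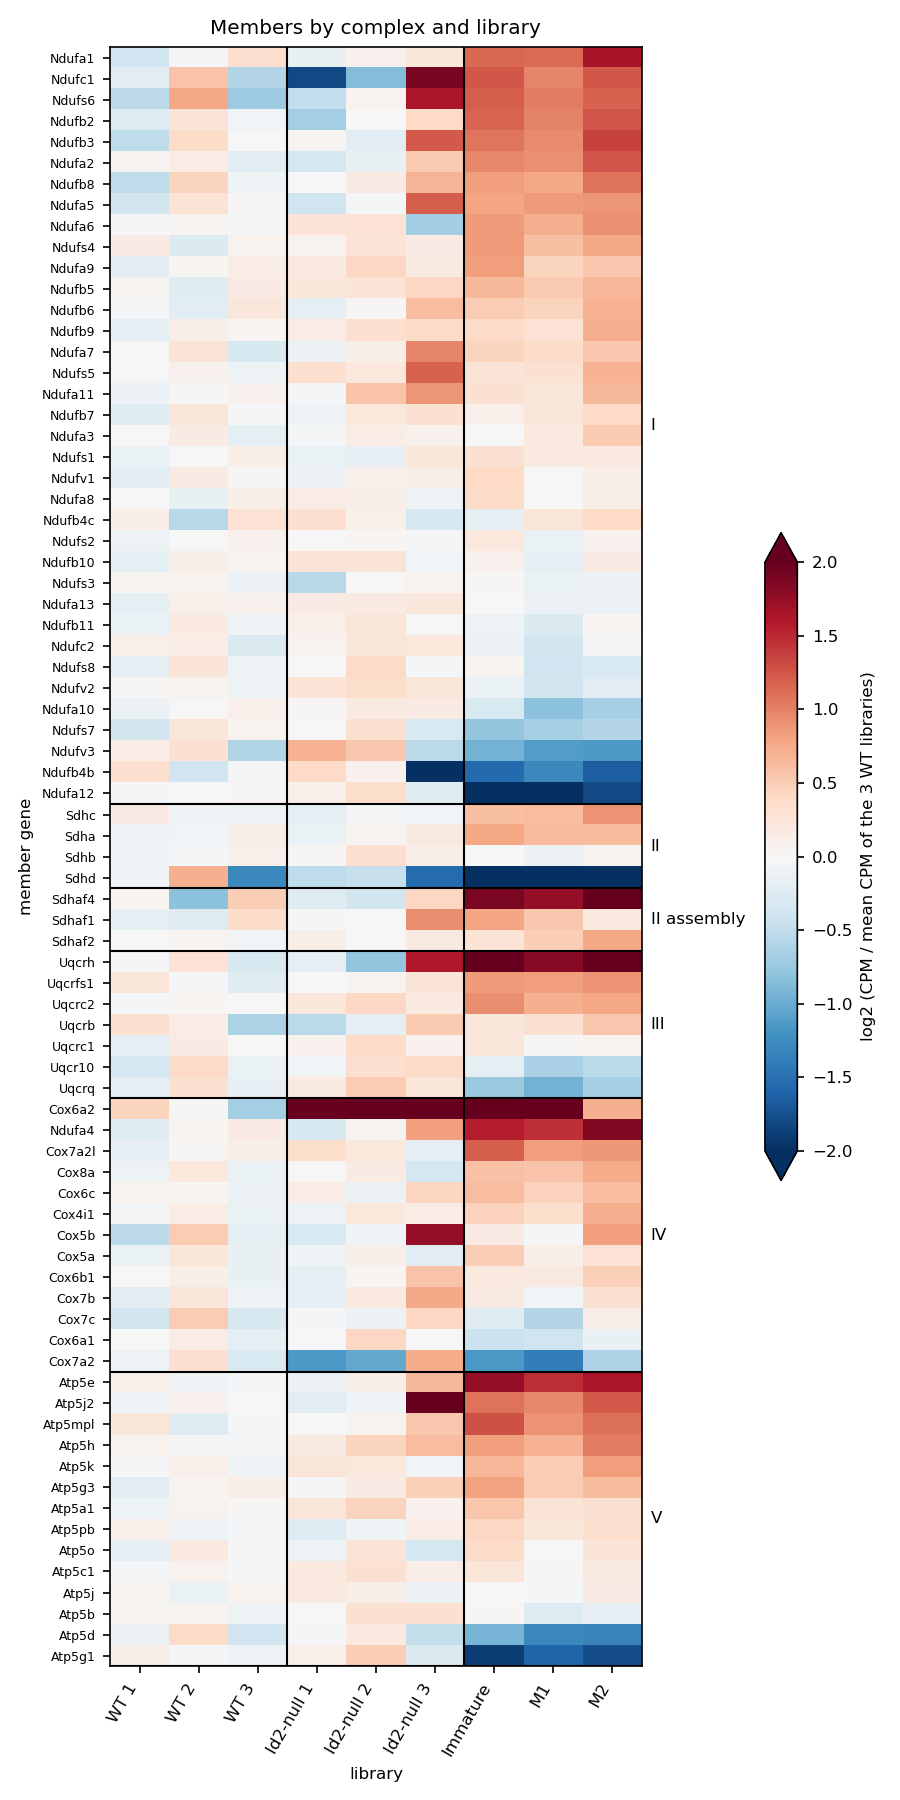
Heat map of the 77 members (rows, by complex and ordered by their fold change between culture and sorted cells) in the 9 libraries (columns). Colour is log2 of CPM over the mean of the 3 WT libraries, limited to 2 either way; most rows are red in the sorted libraries, while Ndufa12, Sdhd, Atp5g1 and Atp5d are blue there.

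In complex I, 10 members were lower and 4 higher in culture. All 10 lower ones were accessory subunits, of 29, and the core subunits, which bear the flavin and iron-sulphur centres, had 1 called of 7. Over all genes tested, 27.9% were called lower and 27.4% higher, shares that also stand beside the counts of the other complexes. With 7 core subunits, a difference between core and accessory subunits was not tested. Ndufa1, an X-linked membrane subunit, was at 26.0, 33.5 and 43.3 CPM in WT, against 75.6, 75.5 and 108 CPM in Immature, M1 and M2. Those ranges did not overlap, and the log2 fold change was -1.31 (SE 0.20, edgeR adjusted p = 0.00107). It has 14 other genes alike in the annotation, the most of any member.

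Ndufa12, an accessory subunit late in assembly, went the other way. Its WT libraries stood at 29.0, 30.2 and 30.4 CPM and the sorted libraries at 7.13, 5.31 and 8.52 CPM. The log2 fold change was 2.12 (SE 0.20, edgeR adjusted p = 0.000127). The 3 remaining members higher in culture were Ndufa10 (log2 0.60), Ndufs7 (0.68), the core subunit that carries the last iron-sulphur cluster, and Ndufv3 (1.07). Ndufs7 was no longer called without WT replicate 2, WT replicate 3 or Immature, with adjusted p of 0.057 to 0.0932 in edgeR. Ndufv3 lost its call in 6 of 14 alternatives, among them those without WT replicate 1, WT replicate 2, M1 or M2, with adjusted p of 0.0592 to 0.103. Ndufs1 and Ndufv1, which binds the flavin, were not called, with log2 fold changes of -0.23 and -0.18.

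In complex II, Sdha was at 229, 233 and 263 CPM in WT and 414, 376 and 374 CPM in the sorted libraries, with a log2 fold change of -0.68 (edgeR adjusted p = 0.00302). Sdhc, a membrane anchor, was also lower, at 83.8 ± 8.98 CPM (SD, n = 3) against a mean of 137 CPM. The WT level of Sdhb was 142 ± 8.82 CPM and the sorted mean 140.2 CPM, with a log2 fold change of 0.02 (edgeR adjusted p = 0.915). Sdhd, the other anchor, was higher in culture, with 60, 103 and 28 counts in WT and 5, 3 and 3 in Immature, M1 and M2. Its log2 fold change was 3.84 (SE 0.67, edgeR adjusted p = 0.0021), and so few counts in the sorted libraries leave its size imprecise. It reached 5 CPM in 5 cultures and no sorted library, and without the WT libraries it would not have been a member, so its direction is no support for a change in the members. Its level per length was 10.2 RPKM in WT, against 132 RPKM for Sdhb. Of the assembly factors, Sdhaf4, a chaperone of the flavinated Sdha protein, was lower in culture (5.62, 3.12 and 7.70 against 20.1, 18.6 and 25.6 CPM), as was Sdhaf2, which helps attach the flavin (log2 -0.51). Sdhaf1 was not called (log2 -0.51, adjusted p = 0.216).

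In complex III, 3 members were lower and 1 higher. Uqcrc2, a core subunit, was at 146, 154 and 150 CPM in WT and 284, 246 and 256 CPM in the sorted libraries. Its log2 fold change was -0.80 (SE 0.11, edgeR adjusted p = 0.000668). Uqcrfs1, the Rieske iron-sulphur protein, was at 75.5 ± 12.6 CPM in WT (SD, n = 3) and at 134 to 140 CPM in the sorted libraries. Uqcrh had a log2 fold change of -2.02 (SE 0.56, edgeR adjusted p = 0.0162) and lost its call without WT replicate 1, without WT replicate 3 and in the robust fit, with adjusted p of 0.0547 to 0.0584. Uqcrq was higher in culture, at 101, 143 and 103 CPM against 69.0, 59.8 and 72.9 CPM (log2 0.78). Uqcrc1 was not called (log2 -0.10), nor was Uqcr10 (log2 0.46).

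In complex IV, 6 of 13 members were lower in culture and none higher. Ndufa4 was at 36.5, 45.4 and 48.7 CPM in WT and 129, 119 and 157 CPM in Immature, M1 and M2, a log2 fold change of -1.62 (SE 0.28, edgeR adjusted p = 0.00185). Cox7a2l, described as a factor of supercomplexes, was at 177 ± 18.03 CPM in WT (SD, n = 3) and 314 to 403 CPM in the sorted libraries. Its activity in this strain was not measured. Cox4i1 was at 284 ± 28.3 CPM against a mean of 406 CPM (log2 -0.51), and Cox8a at 176 ± 24.6 CPM against 273 CPM (log2 -0.63). Cox6c was also lower (log2 -0.56). Cox4i1 and Cox6c were no longer called with library totals as scaling or without WT replicate 3, nor Cox4i1 without M2, with adjusted p of 0.053 to 0.0854. Cox8a lost its call without WT replicate 1 (adjusted p = 0.055) or 3 (adjusted p = 0.0505). Cox6a2 was lower in WT culture than in sorted cells (log2 -1.94, edgeR adjusted p = 0.0114) and was not called with limma voom (adjusted p = 0.0681) or without Immature (adjusted p = 0.0617). Cox5a (log2 -0.30), Cox6a1 (0.32), Cox6b1 (-0.28) and Cox7a2 (1.04) were not called.

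In complex V, 6 members were lower and 2 higher. Within the catalytic F1 part, Atp5e and Atp5d, the small subunits of its central stalk, differed in opposite directions. Atp5e was at 86.5, 76.4 and 79.1 CPM in WT and 274, 225 and 251 CPM in the sorted libraries (log2 -1.63, SE 0.20, edgeR adjusted p = 0.00035). Atp5d was at 177, 250 and 147 CPM in WT and 100, 78.4 and 76.2 CPM in the sorted libraries (log2 1.18, SE 0.24, edgeR adjusted p = 0.00413). Neither gene's ranges overlapped between culture and sorted cells. Atp5b was not called (log2 0.13), and Atp5a1 was lower, with a log2 fold change of -0.37 (edgeR adjusted p = 0.0429), a call that 8 of 14 alternatives ended, among them those without any 1 WT library, Immature or M2 (adjusted p of 0.0506 to 0.145).

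Atp5g1 and Atp5g3 encode the same mature subunit c, and they too differed in opposite directions. Atp5g1 was at 46.7, 42.5 and 39.9 CPM in WT and 11.7, 14.2 and 12.5 CPM in Immature, M1 and M2 (log2 1.75, SE 0.22, edgeR adjusted p = 0.000457). Atp5g3 was at 183 ± 22.8 CPM in WT (SD, n = 3) and at 259 to 318 CPM in the sorted libraries (log2 -0.65, edgeR adjusted p = 0.0118), a call lost under library totals (adjusted p = 0.0615). Per length, Atp5g3 was the major of these isoforms in both settings, at 269 RPKM in WT against 49.5 RPKM for Atp5g1, and at 422 against 14.8 RPKM in the sorted mean. Atp5g1 has 5 other genes alike in the annotation and Atp5g3 has 0. Atp5h (log2 -0.85) of the outer stalk and Atp5mpl (log2 -1.09) of the membrane part were lower in culture.

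**Figure D4:**
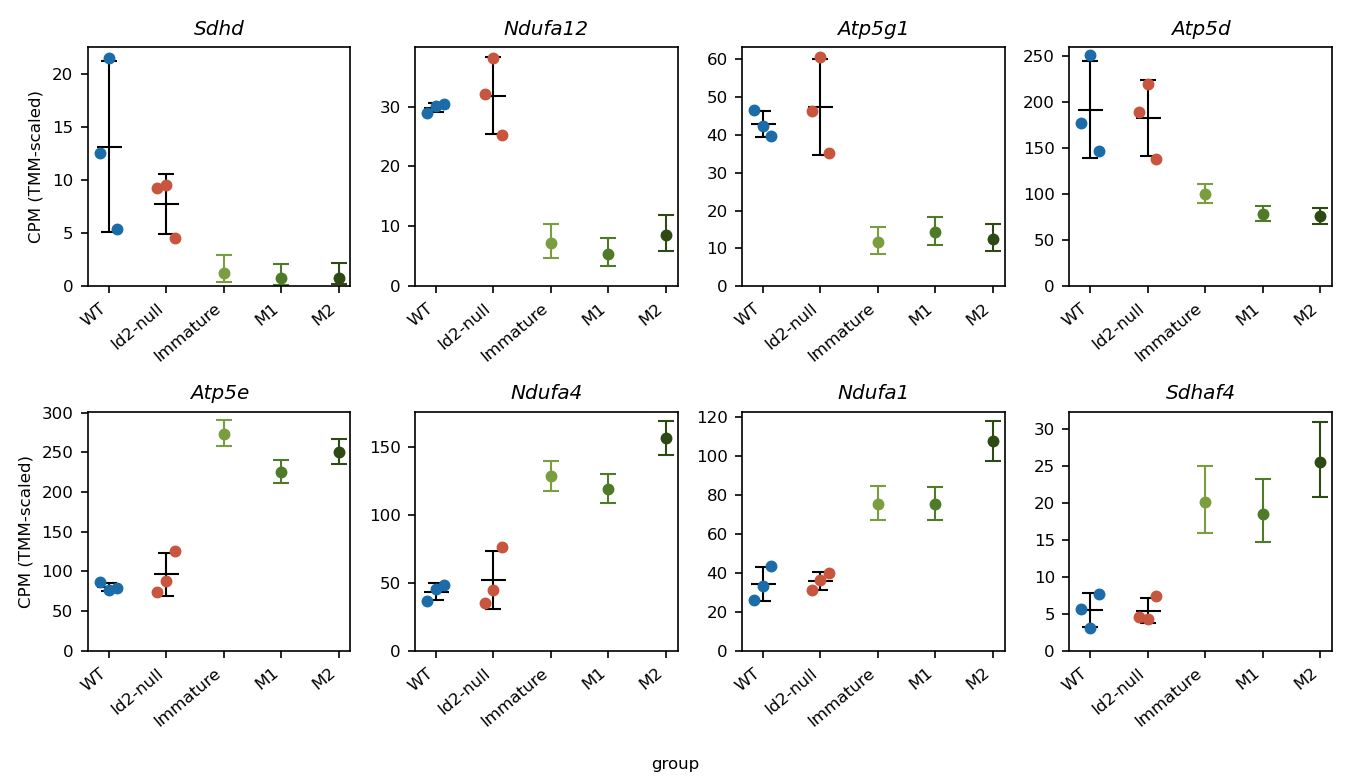
TMM-scaled CPM (vertical axes, each from 0) of 8 members in each group. Points are libraries, black bars are the mean and SD of 3 libraries and coloured bars are exact Poisson 95% intervals of 1 library; Sdhd, Ndufa12, Atp5g1 and Atp5d in the top row are higher in culture, and Atp5e, Ndufa4, Ndufa1 and Sdhaf4 in the bottom row are lower.

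Summed over the members, transcript level was 7929 ± 483 CPM in WT, 8957 ± 590 CPM in Id2-null cells (SD, n = 3 each) and 10290, 8945 and 10030 CPM in Immature, M1 and M2. The 3 Id2-null sums (8298, 9436 and 9138 CPM) overlapped the WT sums (7611, 8484 and 7690 CPM), and the Id2-null sum was the higher within each same-numbered pair, with no test. By complex, the sorted sums were furthest above WT as a ratio in complex IV (mean 1817 against 1278 ± 128 CPM) and complex II (666 against 480 ± 15.5 CPM). In complex I they were 2402, 2140 and 2481 CPM against 1961, 2281 and 2067 CPM in WT, and these overlapped. The 13 mitochondrially encoded subunits summed to 22090 ± 479 CPM in WT, 24800 ± 1029 CPM in Id2-null cells (SD, n = 3 each) and 32960, 26690 and 30530 CPM in the sorted libraries. None of the 13 was called between genotypes. Between culture and sorted cells 3 of the 13 were lower (COX1, CYTB and ND3) and 1 higher (ND6). Over all genes tested, 27.9% were lower and 27.4% higher. COX1, the catalytic subunit of complex IV, was at 7094 ± 134 CPM in WT (SD, n = 3) against a sorted mean of 13860 CPM (log2 -0.96, edgeR adjusted p = 0.000618).

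**Figure D5:**
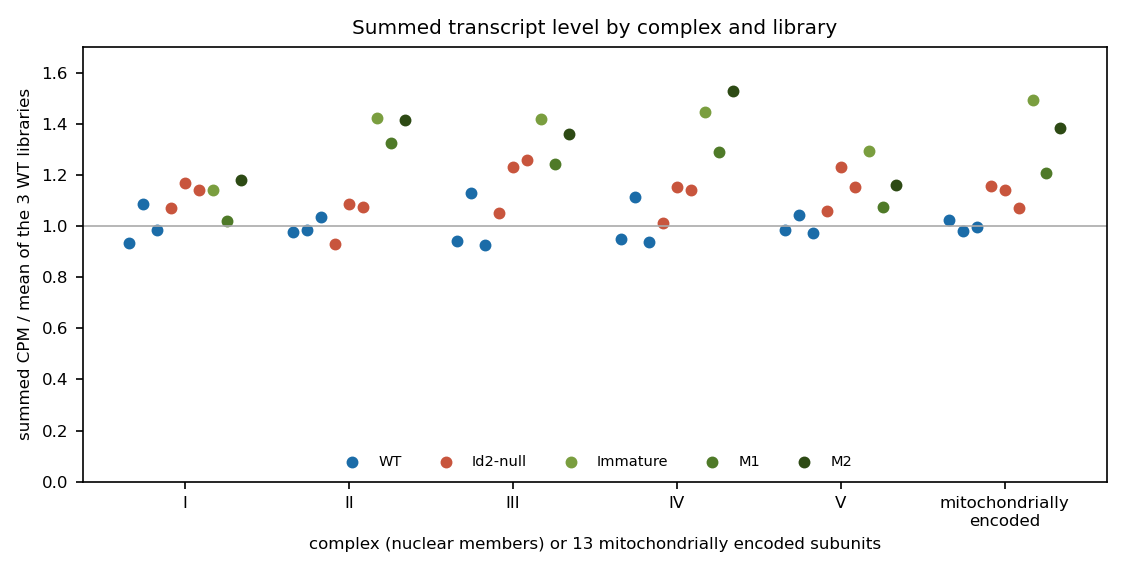
Summed CPM of each complex, and of the 13 mitochondrially encoded subunits, divided by the mean of the 3 WT libraries (vertical axis). Each point is a library; sorted libraries lie above all WT libraries for complexes II, III, IV, V and the mitochondrial genes, and overlap WT for complex I.

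Marker levels of other cells also differed between culture and sorted cells. Of 8 myeloid markers, 5 were listed at 0 in all 6 cultures, and their summed level was 347 to 614 CPM in the cultures, nearly all from Itgax, which NK cells also express. It was 1091, 1240 and 1557 CPM in Immature, M1 and M2. The 6 B cell markers summed to 0.446 to 1.79 CPM in the cultures and to 56.7, 34.3 and 85.3 CPM in the sorted libraries, and the 5 erythroid and platelet markers to 0 in the cultures and 7.75, 8.96 and 22 CPM in sorted cells. The 6 T cell markers summed to 36.9 to 164 CPM in the cultures and to 283, 43.7 and 85.3 CPM in the sorted libraries. The 4 stroma markers ranged from 41.7 to 178 CPM in the cultures and 145 to 149 CPM in the sorted libraries. The part of such cells in the members' differences was not tested.

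Over the sorted populations there was 1 library each and no test, and a step was counted at 1.5-fold. Most members were lowest in M1. From Immature to M1, 65 of 77 went down and 12 up, with a median log2 ratio of -0.16 (0.01 over genes at 5 CPM). From M1 to M2, 68 went up and 9 down, with a median of 0.18 (0.04 over genes at 5 CPM). M1 was the lowest of the 3 in 58 members (75.3%), against 27.4% of genes at 5 CPM, and by library totals in 53 (68.8%) against 24.8%. Most of these steps were small. Past 1.5-fold, 2 members went down from Immature to M1 and 0 went up, against 10.6% and 7.01% of genes at 5 CPM. From M1 to M2, 4 went up and 1 down, against 7.44% and 7.55%.

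Between Immature and M2 the members showed no shared direction. The median log2 ratio was 0.08 by TMM and -0.02 by library totals, and 45 members were up and 32 down by TMM. Past 1.5-fold, 1 was up (Cox5b, 18.3 to 29.1 CPM) and 3 down, against 11.8% and 14.1% of genes at 5 CPM. The 3 were Cox6a2, Sdhd with its few counts, and Sdhaf1 (18.1, 15.2 and 12.03 CPM). Cox6a2 fell in order, at 9.68 CPM in Immature (exact Poisson 95% interval 6.85 to 13.3), 5.55 CPM in M1 (3.52 to 8.33) and 2.004 CPM in M2 (0.865 to 3.95). The intervals of Immature and M2 did not overlap, which covers counting error only. All 3 sorted values lay between those of WT and Id2-null cultures.

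M1 lay between Immature and M2 in 17 members, 7 that went down and 10 that went up, and those with the largest ratios, up to 6 each way, are named. Besides Cox6a2 and Sdhaf1, those that went down were Atp5d (100, 78.4 and 76.2 CPM), Ndufv3 (76.1, 67.6 and 66.4 CPM), Sdha (414, 376 and 374 CPM) and Ndufs1 (98.6, 91.0 and 90.9 CPM). Those that went up were Ndufb4c (5.35, 7.24 and 8.02 CPM), Ndufa3 (72.1, 83.2 and 104 CPM), Sdhaf2 (77.2, 89.8 and 108 CPM), Ndufs5 (9.42, 9.65 and 12.8 CPM), Uqcrb (38.7, 41.0 and 48.4 CPM) and Sdhc (127, 129 and 156 CPM). Apart from Cox6a2 and Sdhaf1, these named changes were below 1.5-fold. Like genes were not sought for Ndufb4c, and Ndufs5 and Uqcrb have 1 and 4 of them. The pseudogene Ndufs5-ps, left out of the members, had more counts than Ndufs5 (119, 118 and 117 against 37, 40 and 51). Myeloid markers were highest in M2, and their part in these steps was not tested.

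Other genes of the pathway were read from lists of assembly factors, carriers, the tricarboxylic acid cycle, biogenesis, and import. None of the genes on these lists was called between genotypes, where 0 of 40 assembly factors and 0 of 24 genes of the tricarboxylic acid cycle passed. With the replicate block 1 assembly factor, Lyrm7, was higher in Id2-null cells (20.03, 21.4 and 24.3 against 11.5, 11.9 and 14.3 CPM, edgeR adjusted p = 0.0304, against 0.0555 without the block). Between WT culture and sorted cells, 6 assembly factors were higher and 9 lower of 41, beside 55.4% of all genes called, 27.4% higher and 27.9% lower. The genes named from each list are those with the smallest adjusted p unless another reason is given. Lyrm7, a chaperone of the Rieske protein, was higher (12.5 against 2.23 CPM), and Coa5 and Cox16 of complex IV assembly were lower. Of 17 electron carriers and coenzyme Q genes, 6 were higher and 2 lower. Pdss1 (log2 1.87) and Coq7 (log2 1.91), enzymes of coenzyme Q synthesis, were higher and Etfa (log2 -1.18) was lower. Of 24 genes of the tricarboxylic acid cycle and pyruvate dehydrogenase, 5 were higher, among them Pcx (log2 1.81), and 6 lower, among them Ogdh (log2 -0.89) and Pdk2 (log2 -2.04). Pdk2 encodes a kinase that inhibits pyruvate dehydrogenase, and the related kinases Pdk1 (log2 2.43) and Pdk3 (log2 0.65) were among the higher genes.

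Of 20 regulators of mitochondrial biogenesis, 2 were higher and 4 lower in culture. The background for this list and those below is again 27.4% of all genes higher and 27.9% lower. Pprc1, a coactivator related to PGC-1, was at 89.7 CPM in WT and 24.1 CPM in the sorted mean (log2 1.95, edgeR adjusted p = 4.83e-05). The other higher gene was Polrmt, the mitochondrial RNA polymerase (log2 0.87). Polg, the mitochondrial DNA polymerase, was lower (log2 -1.03). Tfam, which packages mitochondrial DNA and came next by adjusted p, was also lower (log2 -0.76). Of 7 ADP/ATP and phosphate carriers, uncoupling proteins and outer-membrane channels, 3 were higher, the ADP/ATP carrier Slc25a4 (log2 0.98) and the channels Vdac1 (log2 0.86) and Vdac2 (log2 0.48), and 1 lower, the channel Vdac3 (log2 -0.47). Of 29 import and cristae genes, 7 were higher, among them Hspa9 (log2 0.97) and Immt (log2 0.71). The 4 lower included Tomm22 (log2 -1.45) and, with a larger change, Tomm7 (log2 -3.04). Apoo was among the higher genes with a larger but imprecise change (log2 2.22, edgeR adjusted p = 0.0494). Its levels were very low, at 1.46, 1.87 and 0.77 CPM in WT and 0, 1.21 and 0.75 CPM in Immature, M1 and M2. Atpif1, the inhibitor of ATP synthase reversal, was at 72.3, 82.4 and 73.9 CPM in WT and 31.3, 20.5 and 22.1 CPM in Immature, M1 and M2 (log2 1.65, edgeR adjusted p = 7.95e-05). Between genotypes its log2 fold change was 0.26 (edgeR adjusted p = 0.416).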

How the data were processed

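RNA-seq read counts per gene were deposited for 9 libraries of mouse NK cells, with each gene's length. Per the submitters' processing notes, Subread, featureCounts and limma were used with GRCm38 (mm10). The sources used here give no strand or multi-mapping setting. Symbols came from RefSeq GRCm38.p6 for 25275 of 27179 gene IDs, and coordinates are of that build. The members and gene lists were chosen with earlier results of these data known.

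Genotypes were compared on the 6 cultures, and culture against sorted cells in a 5-group model on all 9 libraries, with edgeR 4.0.16 in R 4.3.3 (TMM, filterByExpr minimum count 10, quasi-likelihood test, Benjamini-Hochberg over all genes, called under 0.05). The fit used edgeR's default options. A robust fit, tried after the data were seen, gave 377 calls between genotypes in place of 370 and 34 member calls in place of 37 between culture and sorted cells, and is reported as an alternative. Other alternatives were other scalings, no filter, DESeq2 1.42.0, limma voom 3.58.1, left-out libraries and a replicate block. Same-numbered libraries of the genotypes deviated together over 11022 genes (r = 0.352, 0.241 and 0.417). Replicates 1 and 2 also did so across numbers, less strongly (r = 0.189 and 0.136). Replicate 3 of either genotype deviated against replicates 1 and 2 of the other (r = -0.397 to -0.261). The labels number the libraries without stating that a number marks a shared day or litter, so the pairing rests on those correlations. They set replicate 3 apart more clearly than they pair replicates 1 and 2 by number.

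CPM are TMM-scaled over 9 libraries unless said, and marker levels are CPM by library total. Means are given ± SD. The 95% intervals of fold changes are the log2 fold change ± 1.96 SE, with the SE taken from the test statistic. With so few libraries this normal form is too narrow. For Atp5a1 it ran from 1.004-fold to 1.446-fold, although the unadjusted edgeR p was 0.0811. On simulated counts the test recovered 70% of 2-fold and 100% of 4-fold changes between genotypes (11022 genes), and 67% and 100% between culture and sorted cells (12326 genes). Of the calls, 5.56% and 4.57% were false. Every gene and library was given the same spread, and 100 genes were changed at each fold, none with few counts. Genes with few counts or a wider spread, sorted libraries that vary more, and a contrast with most genes changed were not simulated. Counts have no molecular identifiers, so Poisson intervals cover counting error only. Like genes were sought with blastn 2.17.0 by a rule settled after the data were seen (90% identity over 100 bases of the longest open reading frame, GENCODE M21).

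Named members were, by rule, up to 10 called members each way by adjusted p in each comparison, up to 6 each way that went in order over the sorted libraries, the 2 highest by RPKM in each complex, and a fixed set of core and isoform genes. Atp5k, Ndufa11, Ndufc1, Atp5j2, Uqcrh, Cox5b, Cox6c, Ndufa9, Ndufv2, Atp5c1, Ndufb4b and Atp5pb were named after their values were seen.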

Additional observations from a re-analysis of the deposited data

How the results depend on the processing

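Between genotypes 1 member was called under each scaling, tool, filter and left-out library (range 1 to 1), and 1 with the replicate block, which changed no member's call and added 1 call among the other pathway genes, Lyrm7 (adjusted p = 0.0304). Without replicate 3 of both genotypes it was 2, and with membership at 20 CPM it was 0, since Cox6a2 is under that level. Calls over all genes moved more than those of the members: 370 as reported, 696 with the replicate block, 580 by DESeq2, 1014 without replicate 3 of both genotypes, 624 without Id2-null replicate 3 and 105 without WT replicate 1. Small differences changed sign: Ndufs1 became 0.00 under library totals and without a filter and ranged from -0.14 to 0.07 with a library left out, Ndufa4 from -0.12 to 0.49 (-0.03 without replicate 3 of both genotypes), Sdha from -0.04 to 0.13 and Atp5g1 from -0.07 to 0.32. None of these passed the test.

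Between culture and sorted cells 28 to 36 members were called when a library was left out, 37 as reported. The median moved from -0.36 to -0.19 under library totals. Ndufb4c became 0.03 and Uqcrc1 0.07 under library totals, and with a library left out Ndufb4c ranged from -0.32 to 0.06 and Sdhb from -0.03 to 0.06. Of 41 named members, 14 had a call or sign that changed in some alternative. Between Immature and M2, 4 members past 1.5-fold became 18 at the lower fold tried, 1 at 2-fold, 7 with membership at 1 CPM and 1 at 20 CPM, and the median became -0.02 by library totals. The cause of these changes was not tested. Depth limits members under about 10 CPM, such as Sdhd and Cox6a2, whose counts in some libraries were below 10.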
